A study of Bos taurus with 16 samples.

Results

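The unnamed gene models of bovine blastocysts are loci that the authors' transcript assembly placed outside the annotated genes, and they carry a provisional number in place of a gene symbol. Every entry with such a provisional identifier was taken from both blastocyst tables, which gave 2675 of 38959 entries (6.87%) in the first table and 1145 of 37429 (3.06%) in the second, 3820 in all. The numbers were given independently in each table, so a model is called here by its number and its table, and models of different tables were treated as the same locus only where their spans overlapped on the same strand. Coordinates are those of the authors' tables. Of the 36219 annotated genes found in the RefSeq gene table of the assembly ARS-UCD2.0, 98.8% had the same start and end there.

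All 12 libraries were made from single wild-type bovine blastocysts produced by in vitro fertilization, and the labels give the same batch for all of them. In the first experiment, embryos received 10 uM LY2955303 (LY10, 3 libraries), an inhibitor of the retinoic acid receptor RARγ, or the DMSO vehicle (DMSO, 3 libraries), from the 2-cell stage per the study's methods. In the second, LY2955303 was started at the 2-cell stage (cell2_LY, 2 libraries) or at the 16-cell stage (cell16_LY, 2 libraries), beside a vehicle group (LY_DMSO, 2 libraries); the labels of these libraries give no concentration. Labels do not say whether embryos of a group came from separate fertilizations, so p-values measure the spread between these embryos, and with 2 or 3 embryos per group that spread was itself estimated from few values. A blastocyst mixes trophectoderm, epiblast and hypoblast cells, and fewer cells of a type cannot be told apart from less RNA per cell.

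An assembler such as StringTie joins aligned reads into transcripts whether or not a gene is annotated at the position, so its unannotated loci usually mix long non-coding RNAs, unannotated ends of known genes and transcribed mobile elements. Endogenous retroviruses are remnants of germline infections that keep parts of the gag, pol and env genes, and LINE-1 elements encode a reverse transcriptase of their own; both kinds are known to be transcribed in preimplantation mammalian embryos, where DNA methylation is low. RARγ is a nuclear receptor that, together with a retinoid X receptor, binds to DNA and changes transcription when it binds retinoic acid.

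The models were short and mostly outside genes. Their median length was 817 bases in the first table and 1129 in the second, from 200 to 17774 and 14033 bases, against 2680 bases for protein-coding genes and 1756 for annotated long non-coding RNA (lncRNA) genes. A single uninterrupted block, with a length equal to the span, made up 490 models (18.3%) of the first table and 278 (24.3%) of the second. Both strands were used nearly evenly, with 1404 plus-strand and 1271 minus-strand models in the first table. Only 10 models of the first table and 5 of the second overlapped an annotated gene.

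Most models lay well away from annotated genes, but a large minority lay beside one. Of the models of the first table, 1601 (59.9%) were more than 5 kb from any named gene, and 492 (18.4%) had one within 5 kb on the other strand only. On the same strand, 257 (9.61%) lay within 5 kb upstream and 167 (6.24%) within 5 kb downstream of the nearest gene of that strand. A further 148 lay on a sequence with no named gene. In the second table these numbers were 614, 232, 116, 101 and 77. Within 1 kb upstream of a gene and on its other strand, the position of a divergent promoter transcript, were at least 220 and 100 models. Models that also had a gene within 5 kb on their own strand were not counted there. Strands are those given by the authors. The library kit does not mark strand, and the strand given to single-block models was not checked. Unplaced sequences, pieces of the assembly not assigned to a chromosome, held 208 models (7.78%) of the first table and 100 (8.73%) of the second but only 1.73% of named genes. The X chromosome held 5.46% and 4.98% of the models and 4.36% of named genes.

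Where the authors' protein annotation gave a model a match, it was mostly to a mobile element. A match was listed for 489 models (18.3%) of the first table and 269 (23.5%) of the second, and of these 369 (75.5%) and 207 (77.0%) were to an endogenous retrovirus (ERV), a LINE or a DNA transposon. ERV matches numbered 140 and 93, of which 89 and 59 were to gag or pol proteins and 51 and 34 to an envelope protein. LINE matches numbered 212 and 107. The ERV models were the longest class, with medians of 2764 and 3350 bases against 712.5 and 914 bases for models without a match. Other matches, to 120 and 62 models, were to other proteins, some of them uncharacterised. A match is the authors' annotation of a similar protein and does not show that the model is translated, and at some loci the 2 tables list different retroviral proteins.

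Most models were read weakly. Of the first table's models 89 had no read in any library, 365 had reads in 1 library only and 807 had reads in all 6; in the second table these numbers were 44, 48 and 760. A mean of at least 1 FPKM (fragments per kilobase of model, scaled to sequencing depth) was reached by 847 and 614 models, and of at least 10 FPKM by 81 and 75. For tests the FPKM values were turned back into reads and scaled to the same library size, here called the normalized count, and only genes with a mean of at least 10 were tested. This kept 924 models (34.5%) of the first table and 736 (64.3%) of the second. Among tested genes the median FPKM was 1.74 and 1.67 for models, 0.73 and 0.55 for lncRNA genes and 4.77 and 4.71 for protein-coding genes. The filter is on reads, and at the same count a shorter gene has a higher FPKM. Models had a shorter median length than lncRNA and protein-coding genes, so these medians do not compare like with like. ERV models passed the filter most often, at 75.7% and 90.3%.

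Overlap between models limited some levels. The spans of 303 models (11.3%) of the first table and 161 (14.1%) of the second overlapped another model on the other strand. Among these, 19.5% and 21.7% had no read at all, against 1.26% and 0.915% of the other models. The library kit does not mark strand, so reads from overlapping models cannot be told apart, and the part of the counting rule in these zeros was not tested. The clearest case is on chr13:73265356-73274600. There the second table has model 549, with a match to a Gag-Pro-Pol polyprotein, at normalized counts of 9003 and 8247 in LY_DMSO, 26229.6 and 9990.0 in cell2_LY and 5433 and 9249 in cell16_LY. The first table has models 1317 and 1282 on opposite strands of the same place, and no library of it has a normalized count above 0.78 for either.

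The 12 libraries had 7905768 to 17343140 reads on genes. Of the 11 trophectoderm markers, DMSO_1 and DMSO_2 had reads of 10 and every other library of all 11. KRT8, a keratin, had a normalized count of at least 29831 and GATA3, a trophectoderm transcription factor, of 1438 or more. Other markers were low in some or all libraries. ELF5 was at 0 to 7.66 in the first table and 0.92 to 40.0 in the second, CDX2 at 2.98 to 109 and 8.34 to 78.6, and IFNT2 at 1.99 to 45.9 and 12.9 to 245. The summed count of the 11 trophectoderm markers was 59225, 49740 and 119990 in DMSO and 174707, 69140 and 94798 in LY10, and thus lowest in DMSO_1 and DMSO_2. It was 104853 to 193622 in the second table. The sum was mostly that of the keratins KRT8 and KRT18, at 29831 to 122407 and 13263 to 45341 in the first table. GATA3 was at 1764 to 3925 there. The 7 hypoblast markers summed to 9284 to 26750 in the first table and 22145 to 54405 in the second, led by FN1, PDGFRA and GATA6, while SOX17 was at or near 0 in both tables (0 to 3.98 and 0 to 0.99). The 5 blood and immune markers summed to 26.4 to 53.7 and 40.4 to 149, with CD68 at 11.9 to 141. HBB, a haemoglobin chain, was at 0 in all libraries, but HBA, another such chain, was at 1.36 to 27.9 and 3.71 to 29.6. PTPRC was at 0 to 1.09 and 0 to 46.3. The libraries of the first table stood apart by more than treatment: 172 of the 924 tested models had over 50% of their normalized counts in DMSO_2 alone, 54 in DMSO_1 and 19 in DMSO_3, while LY10_1, LY10_2 and LY10_3 took 2, 20 and 2. A single library thus held most of the reads of 269 tested models (29.1%) against 6.64% of tested named genes. In the second table this was so for 93 models (12.6%) against 3.43% of named genes, 33 of them in LY_DMSO_2 and 34 in cell2_LY_1.

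Reads on unnamed models took a larger share in vehicle embryos than in LY10 embryos. The share of gene reads was 1.563%, 2.023% and 0.9858% in DMSO_1, DMSO_2 and DMSO_3 and 0.6363%, 0.8958% and 0.771% in LY10_1, LY10_2 and LY10_3. The lowest vehicle library was above the highest LY10 library, and the means were 1.52% ± 0.52 (SD, n = 3) and 0.768% ± 0.13 (SD, n = 3), with p = 0.1 in a two-sided exact permutation test, the smallest that 3 against 3 allows. The vehicle libraries with the highest shares, DMSO_1 and DMSO_2, were also those with the lowest summed trophectoderm markers, a sum mostly of KRT8 and KRT18. The part of these markers in the shares and in the fold changes of LY10 vs DMSO was not tested. In the second experiment the shares were 0.8237% and 0.8783% in LY_DMSO, 1.716% and 0.8749% in cell2_LY and 0.8083% and 0.9671% in cell16_LY, and the groups overlapped. The high value was library cell2_LY_1, and no exact permutation test of 2 against 2 libraries can go below 0.333 when two-sided. The summed trophectoderm markers of cell2_LY_1 (131482) were above those of LY_DMSO (124149 and 104853). They were below those of cell2_LY_2 (193622) and cell16_LY (133628 and 133150).

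**Figure D1:**
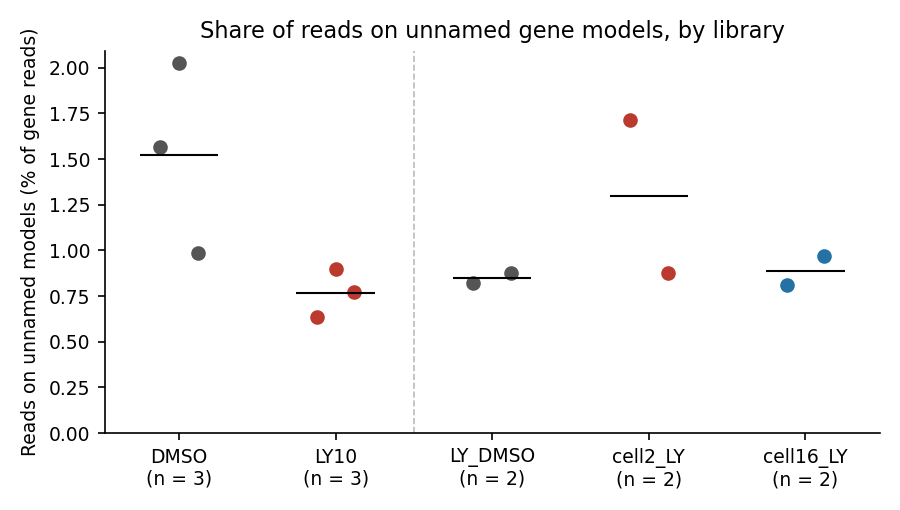
Share of gene reads that fell on unnamed gene models (vertical axis, percent) in each library (dots), with group means (lines), the first experiment left and the second right of the dashed line. DMSO libraries span 0.9858 to 2.023% and LY10 libraries 0.6363 to 0.8958%, while in the second experiment cell2_LY_1 at 1.716% is above the 5 other libraries, which span 0.8083 to 0.9671%.

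LY10 against DMSO asked what 10 uM of the RARγ inhibitor from the 2-cell stage changed in blastocysts. Among the 924 tested models, 16 were higher and 162 lower in LY10, where a call needed an unadjusted p under 0.05 in limma and a log2 fold change beyond 1 in size, the thresholds of the study. Over all 14249 genes tested, 14.7% were called, 6.2% higher and 8.51% lower, and of the models 1.73% were called higher and 17.5% lower. Their median log2 fold change was -0.88 (quartiles -2.02 and 0.08), with 677 below 0 and 247 above, against -0.05 for all genes, 0.01 for protein-coding genes and -0.61 for lncRNA genes, of which 10 were higher and 106 lower among 655. No model had an adjusted p under 0.05, 185 had an unadjusted p under 0.05 (22.9% of all genes did), and 2 of all genes (0.014%) passed the adjusted threshold. In 188 models (20.3%) the libraries of the groups did not overlap, against 28.1% of all genes. Unlike annotated genes, the models came from the authors' assembly, made separately for each table, and 1 high library could be enough to pass the filter. Of 42 tested models without reads in 1 group, 39 had none in LY10 and 3 none in DMSO. The part of this choice of models in the low median and the lower calls was not tested.

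The count of lower models rested on single libraries and on scaling. It was 103 without DMSO_1, 100 without DMSO_2, 107 without LY10_1 and 339 without DMSO_3, and the median was between -0.49 and -1.28 in all alternatives run. With quantile normalization 31 models were higher and 100 lower, so the lower share of calls was 76.3% in place of 91.0%. The low median was seen at every level of expression, at -1.05 for mean normalized counts of 10 to 50, -0.59 for 50 to 200 and -0.54 above 200, where protein-coding genes had -0.38, 0.06 and 0.09 and lncRNA genes -0.64, -0.50 and -0.76.

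The median was below 0 in every class of models, and it was nearest to 0 just downstream of genes. Median log2 fold changes were -0.62 for 106 ERV models (1 higher, 18 lower), -0.81 for 120 LINE models (1 higher, 12 lower), -0.87 for 61 models with a match to another protein (2 higher, 9 lower) and -0.97 for 627 models without a match (12 higher, 122 lower). By position the median was -1.27 for 532 models farther than 5 kb from a named gene (6 higher, 110 lower), -0.69 for 190 on the other strand within 5 kb (3 higher, 23 lower) and -0.68 for 93 upstream on the same strand (2 higher, 16 lower). Models within 5 kb downstream of a gene on its own strand, the position of an unannotated 3′ end, had a median of -0.04 over 74 models (4 higher, 7 lower). The differences between classes were not tested, and the same-strand and other-strand classes include single-block models, whose strand was not checked.

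**Figure D2:**
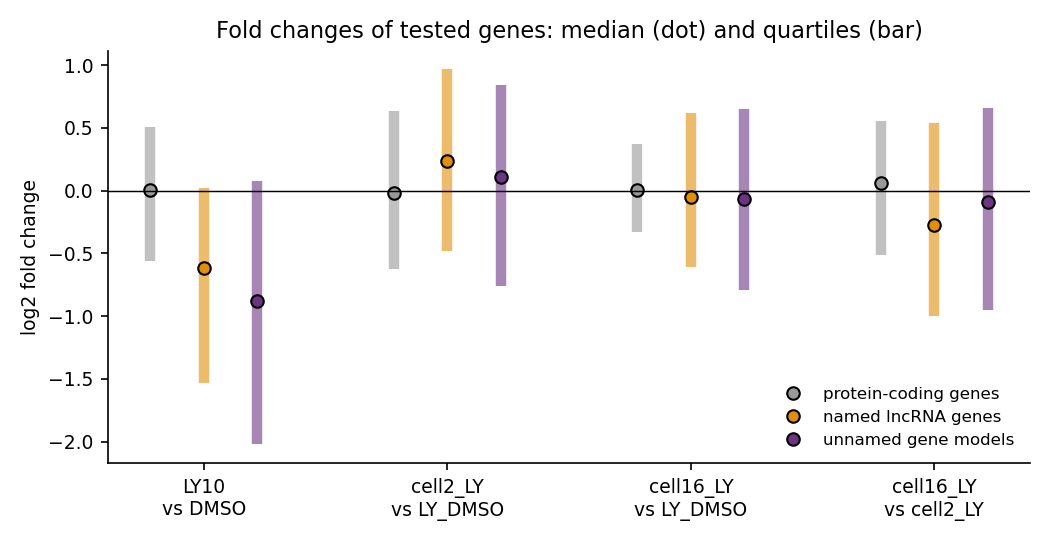
Median log2 fold change (dots) and quartiles (bars) of protein-coding genes, annotated lncRNA genes and unnamed gene models that were tested in each of the 4 comparisons. In LY10 vs DMSO the models have a median of -0.88 and protein-coding genes 0.01, while in the other comparisons the medians of the models lie between -0.09 and 0.11.

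Large retroviral transcripts were among the models that fell in LY10. Model 1835 (chr20:60575843-60584561, plus strand, 5159 bases), with a match to a retroviral envelope glycoprotein, had normalized counts of 6775, 6941 and 4525 in DMSO and 468, 1124 and 1418 in LY10. All vehicle libraries were above all LY10 libraries, with a log2 fold change of -2.72 (SE 0.40, adjusted p = 0.071, limma). Model 1862 on the other strand of that place had no read. Model 2492, on an unplaced sequence and with a match to a Gag-Pro-Pol polyprotein over 7894 bases, had 4571, 4403 and 2291 in DMSO and 307, 845 and 483 in LY10, a log2 fold change of -2.84 (SE 0.41, adjusted p = 0.071, limma). Its groups were as far apart as those of model 1835.

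In the second experiment the same places did not pass the threshold. Model 1061, the counterpart of 2492, had 1158 and 1768 in LY_DMSO, 2141 and 1124 in cell2_LY and 1022 and 1678 in cell16_LY, with a log2 fold change of 0.12 (SE 0.40) for cell2_LY. The counterpart of 1835, model 791, had 146 and 129 in LY_DMSO, 334 and 90.7 in cell2_LY and 229.6 and 327 in cell16_LY. Most reads at that place were on model 805 of the other strand, at 4172 and 2166 in LY_DMSO, 7115 and 2361 in cell2_LY and 2966 and 5684 in cell16_LY, so the assembly split the place differently in the 2 tables.

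The most abundant ERV model did not pass the threshold in any comparison. Model 857 of the first table (chr8:76136734-76145103, minus strand), with a match to the envelope polyprotein of the ERV group PABLB, had a mean of 164 FPKM and normalized counts of 3072, 5331 and 5429 in DMSO and 3279, 2366 and 4888 in LY10. Its log2 fold change was -0.41 (SE 0.33). In the second table the same place, model 358, had 231 FPKM and 6210 and 10028 in LY_DMSO, 5999.7 and 6399 in cell2_LY and 10273 and 9871 in cell16_LY. The groups overlapped in the first table, and a change smaller than the threshold cannot be told from these libraries.

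Models without a protein match also fell. Model 1638 (chr18:20693102-20696215, plus strand), 197176 bases from TOX3, had 139.7, 202 and 27.4 in DMSO and no read in LY10, so its mean was at least 37.0-fold higher in DMSO when each LY10 library is set to 3 reads. Model 45 (chr1:125987119-126002816) starts 510 bases upstream of U2SURP, a gene with a role in RNA splicing, on the other strand, and had 147, 104 and 89.7 in DMSO and 6.82, 16.1 and 20.7 in LY10. It fell by 2.97 on the log2 scale (SE 0.53, adjusted p = 0.078, limma), while U2SURP itself had a log2 fold change of 0.09 (SE 0.21). Model 331 (chr3:113280745-113287897), 13633 bases from UGT1A6, had 1026, 583 and 407 in DMSO and 240.0, 186 and 233 in LY10, with a log2 fold change of -1.51 (SE 0.35). The groups of models 45 and 331 did not overlap.

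A pair of overlapping models on opposite strands of chromosome 8 fell together. Models 794 (chr8:71763908-71787151, plus strand) and 855 (chr8:71735729-71786850, minus strand), both with a Gag-Pro-Pol match, lie 57871 and 29692 bases from ADAM7, and 794 lies almost wholly within the longer span of 855. Normalized counts of 794 were 888, 1091 and 661 in DMSO and 51.8, 197 and 312 in LY10, and those of 855 were 718, 740 and 148 in DMSO and 28.6, 26.1 and 5.18 in LY10. Their log2 fold changes were -2.54 (SE 0.58) and -4.65 (SE 0.78). Since they overlap, they are not independent observations.

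Few models rose in LY10, and those named by the rule were of different kinds. Model 2046 (chr23:33181604-33183567, minus strand), 297 bases downstream of ALDH5A1 on the same strand, had 378, 338 and 422 in DMSO and 1188, 1001 and 862 in LY10, a log2 fold change of 1.41 (SE 0.23, adjusted p = 0.078, limma). ALDH5A1, which encodes succinate semialdehyde dehydrogenase, had 0.72 (SE 0.39) and did not pass. Model 918 (chr9:101386419-101390864), 2543 bases from RPS6KA2, had 14.0, 27.9 and 2.19 in DMSO and 76.4, 359 and 80.3 in LY10, a log2 fold change of 3.56 (SE 0.91). Its groups did not overlap, and LY10_2 was well above the other LY10 libraries.

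The rule named 3 more of the 16 models that rose. Model 702 (chr7:68711273-68728308), with a LINE-1 reverse transcriptase match, had 17.1, 0 and 225 in DMSO and 526, 243 and 306 in LY10, with a log2 fold change of 4.41 (SE 1.58), and was no longer called without DMSO_1 or LY10_1. Model 1441 on chromosome 15 had 28.7, 2.98 and 12 in DMSO and 60.0, 194 and 46.6 in LY10. Model 1819 (chr20:24453589-24454880), a single block with a match to G3BP1, a stress granule protein, had 50.5, 42.8 and 63.5 in DMSO and 84.5, 114 and 124 in LY10, a log2 fold change of 1.03 (SE 0.37), and was no longer called without DMSO_2, LY10_2 or LY10_3. A single block with a protein match may share reads with its parent gene, so its level is uncertain.

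**Figure D3:**
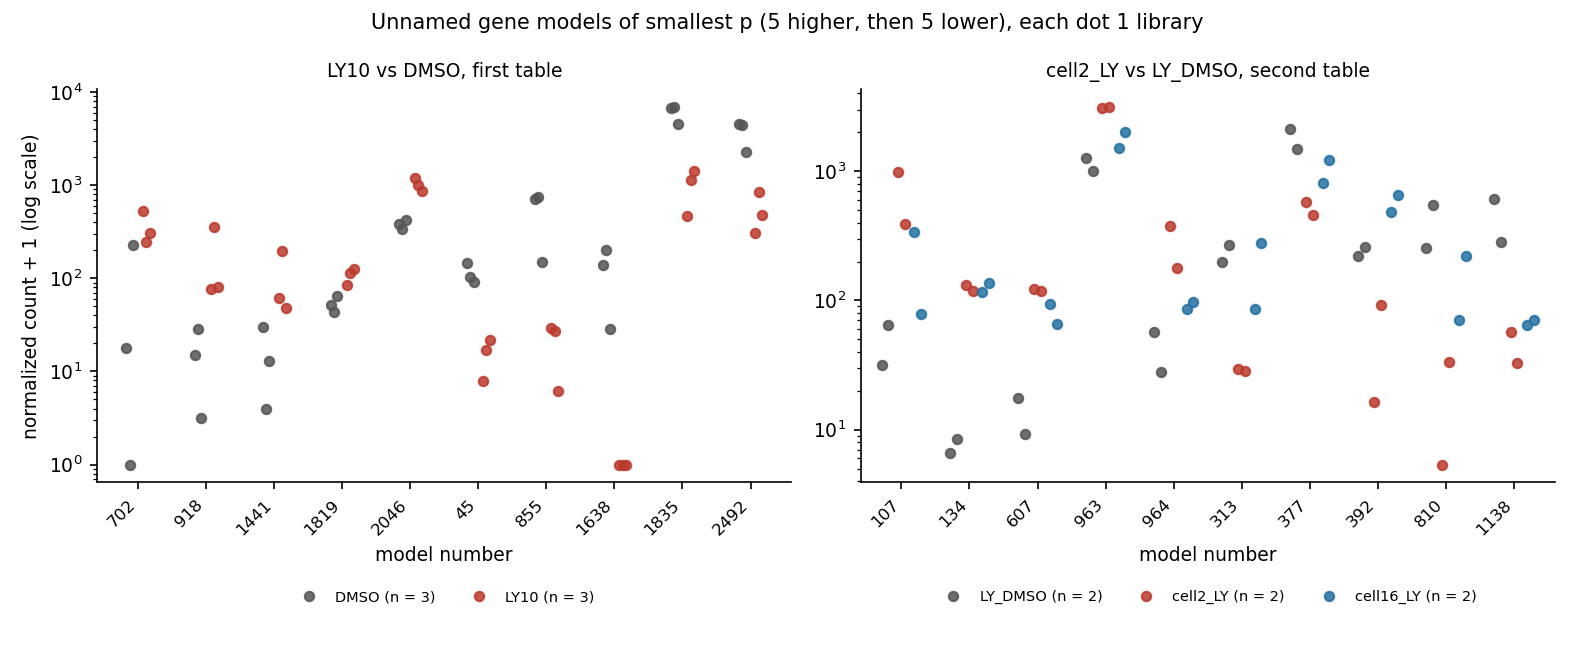
Normalized counts plus 1 on a log axis for the models of smallest p, 5 higher and then 5 lower, in LY10 vs DMSO (left, first table) and cell2_LY vs LY_DMSO (right, second table), with 1 dot for each library and colours for the groups, so that a dot at 1 is a library without reads. The groups compared do not overlap for any model shown, which the choice of models required, and the LY10 dots of model 1638 all lie at 1.

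Some of the highest means of the first table came from a single embryo. The 5 models on unplaced sequences with a match to spermatid nuclear transition protein 3, a basic protein of maturing sperm, were picked out after their values were seen. Model 2616 had 576, 15540 and 1.09 in DMSO and 0, 2.01 and 5.18 in LY10, and model 2578 had 422, 13236 and 6.56 in DMSO and 2.73, 3.35 and 10.4 in LY10. Nearly all reads were in DMSO_2, and the calls of both models (log2 fold changes -6.65 and -5.94, SE 2.64 and 2.17) were lost without DMSO_1, DMSO_2, LY10_1 or LY10_2, that of 2616 also without LY10_3. Without these 2 models the share of reads on models was still 1.43% ± 0.40 (SD, n = 3) in DMSO against 0.768% ± 0.13 (SD, n = 3) in LY10. In the second table model 1124, the counterpart of 2616, was between 0 and 13.1 in all 6 libraries.

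The other most abundant models of the first table were model 866, at 491 FPKM, and model 1, at 488 FPKM. Model 866 (chr8:101321003-101322239) is a single block 970 bases downstream of UGCG, the glucosylceramide synthase gene, on the other strand, and had 6559.5, 6984 and 10451 in DMSO and 4084, 4361 and 6376 in LY10. Its log2 fold change of -0.69 (SE 0.27) stayed under the threshold in size, and that of UGCG was -0.86 (SE 0.32). Model 1 covers bases 1 to 231 of the mitochondrial genome and had 880, 1259 and 860 in DMSO and 1804, 1311 and 1094 in LY10, with overlap between 1259 and 1094. The longest model, 1913 (17774 bases, chromosome 21), had a LINE-1 match and 630, 1657 and 182 in DMSO and 217, 312 and 479 in LY10, with no call.

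Homeobox matches were few, and they were looked at after their values were seen. Model 861 (chr8:90032644-90039852, minus strand), with a match to the homeobox protein Mix.2 and a homeodomain, had 329.9, 868 and 589 in DMSO and 66.8, 131 and 246 in LY10, a log2 fold change of -2.09 (SE 0.51, adjusted p = 0.084, limma). Model 482, a homeobox entry 19321 bases upstream of NANOG on the same strand, had 613 in DMSO_3 and no read in the 5 other libraries of its table. Model 1727, with a match to tetrapeptide repeat homeobox protein 2, had 3.28 in DMSO_3 and 0 elsewhere. Model 1730 was the only model within 50 kb of DUXA, at 12789 bases, and no model was that close to ARGFX; its counts of 5.43, 19.9 and 2.19 in DMSO and 1.36, 3.35 and 1.29 in LY10 were too low to be tested.

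cell2_LY against LY_DMSO asked the same question in other embryos. There were 56 models higher and 44 lower in cell2_LY among the 736 tested, and their log2 fold changes had a median of 0.11. No model had an adjusted p under 0.05 in limma (0.0138% of all genes did), and 107 had an unadjusted p under 0.05 (24.6% of all genes). Over all 14529 genes 17% were called, 8.71% higher and 8.34% lower, against 7.61% and 5.98% of the models. At a mean normalized count of 200 or more, 23.1% of models and 18.4% of protein-coding genes were called. These shares were 21.5% and 22.4% at 50 to 200 and 7.48% and 10.6% at 10 to 50, and the differences were not tested. The libraries of the groups did not overlap for 284 models (38.6%), against 53.7% of all genes. Without cell2_LY_1, whose share of reads on models stood apart, 34 models were higher and 78 lower.

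ERV models had a median of -0.47 (84 tested, 5 higher, 12 lower). Of the 32 with an envelope match 26 were below 0 (median -0.81), and of the 52 with a gag or pol match 30 were (median -0.17). The median was 0.28 for 87 LINE models (10 higher, 6 lower). Summed normalized counts of all ERV models were 51039 and 58156 in LY_DMSO and 84422 and 42408 in cell2_LY, so the groups overlapped. Models within 5 kb downstream of a gene on the same strand had a median of 0.46 (66 tested, 7 higher, 1 lower). Of the ERV models that fell, 1138, on an unplaced sequence and with a Gag-Pro-Pol match, had 607 and 282 in LY_DMSO, 55.7 and 31.6 in cell2_LY and 63.2 and 70.0 in cell16_LY. Its log2 fold change was -3.27 (SE 0.51, adjusted p = 0.071, limma), and both treated groups lay below both vehicle libraries. Model 810 (chr21:1063204-1071467), with a match to envelope glycoprotein gp70, had 253 and 546 in LY_DMSO, 4.37 and 32.6 in cell2_LY and 69.7 and 219 in cell16_LY, a log2 fold change of -4.80 (SE 0.90) for cell2_LY.

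Of the models without a match that fell, 377 (chr9:68642252-68654967) had 2127 and 1488 in LY_DMSO, 574 and 458 in cell2_LY and 805 and 1222 in cell16_LY, a log2 fold change of -1.79 (SE 0.32) for cell2_LY. Model 392 (chr9:15191011-15219227), 22937 bases from SENP6, had 221 and 259.7 in LY_DMSO, 15.3 and 91.7 in cell2_LY and 482 and 651 in cell16_LY. It fell by 2.63 on the log2 scale in cell2_LY (SE 0.71), and cell16_LY was higher than cell2_LY by 3.85 (SE 0.71). Model 393, which overlaps 392 on the same strand, had 1039 and 490 in LY_DMSO, 5.46 and 1910 in cell2_LY and 1420 and 4252 in cell16_LY. The part of the split of reads between these overlapping models in the changes of model 392 was not tested. SENP6, which encodes a SUMO protease, had a log2 fold change of 0.03 (SE 0.24) in cell2_LY.

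The models that rose in cell2_LY included 1 near NODAL and 1 near UNC5B. Model 963 (chr28:26629345-26633587, minus strand, a single block), 3204 bases downstream of NODAL on the same strand, had 1269 and 996 in LY_DMSO, 3059.9 and 3145 in cell2_LY and 1501 and 2020.0 in cell16_LY. The log2 fold change was 1.46 (SE 0.27, adjusted p = 0.071, limma) in cell2_LY, with no overlap. NODAL, a secreted TGF-beta family signal, had group means of only 0 to 2.73 and was not tested. Model 964 (chr28:27442118-27443534), 1580 bases from UNC5B on the other strand, had 55.6 and 26.8 in LY_DMSO, 375 and 178 in cell2_LY and 85.5 and 96.8 in cell16_LY, a log2 fold change of 2.71 (SE 0.54). UNC5B, which encodes a netrin receptor, rose too, by 2.24 (SE 0.41). The model and the gene do not overlap, but the library kit does not mark strand. Whether the reads at the model belong to UNC5B was not tested.

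Models 134, 607 and 107 also rose in cell2_LY. Model 134 (chr3:58791764-58792858), 16647 bases from DDAH1, had 5.56 and 7.39 in LY_DMSO, 131 and 116 in cell2_LY and 116 and 135 in cell16_LY, with log2 fold changes of 4.07 and 4.09 (SE 0.52 for both) against the vehicle. Model 607 (chr15:35136227-35139815), 1999 bases upstream of NCR3LG1 on the same strand and with a reverse transcriptase domain, had 16.7 and 8.32 in LY_DMSO, 122 and 117 in cell2_LY and 92.0 and 64.1 in cell16_LY. Both models were higher in every treated library than in the vehicle libraries. Model 107 (chr3:35107223-35189253) had 30.6 and 63.8 in LY_DMSO, 981 and 392 in cell2_LY and 339 and 78.1 in cell16_LY, and its SE of 0.74 was the larger for the gap within groups.

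cell16_LY against LY_DMSO asked what a later start of the inhibitor changed. Of the 736 models 29 were higher and 38 lower, where 5.22% of all genes were called, 3.25% higher and 1.97% lower; the models were called in 3.94% and 5.16%. The median was -0.07 and no adjusted p was under 0.05 in limma, while 71 had an unadjusted p under 0.05 (7.62% of all genes did). The libraries of the groups did not overlap for 299 models (40.6%), against 42.9% of all genes. Without LY_DMSO_1, 51 models were higher. Without the models that overlap another on the other strand, an alternative chosen after seeing the data, 29 were higher and 23 lower of 657.

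The clearest rise was at an ERV, but most ERV models lay below 0. Of 84 tested ERV models 28 were above 0 and 56 below (median -0.51, 1 called higher, 4 lower). The vehicle libraries are the same as for cell2_LY. Model 757 (chr19:27210238-27218497, plus strand, 3031 bases), with a match to the ERV group PABLB envelope polyprotein and 2746 bases upstream of the uncharacterised gene LOC100568284, had 170.5 and 151 in LY_DMSO, 560.2 and 400.5 in cell2_LY and 1154 and 1591 in cell16_LY. Each group lay apart from the others, with log2 fold changes of 3.07 (SE 0.32, adjusted p = 0.060, limma) for cell16_LY and 1.56 (SE 0.32) for cell2_LY against the vehicle, and 1.51 (SE 0.32) between the treated groups. In the first table its counterpart, model 1753, had 119.5, 100.5 and 723 in DMSO and 184, 194 and 101 in LY10, with overlapping groups. Model 640 (chr16:4791634-4794552) had 27.8 and 29.6 in LY_DMSO, 100.5 and 50.3 in cell2_LY and 210.1 and 174 in cell16_LY. Model 716 (chr18:61628114-61632848), with a LINE-1 match, had 11.1 and 35.1, 104 and 32.6, and 136 and 231 in the same order.

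Models on unplaced sequences made up much of the fall in cell16_LY. Of the 23 tested models on a sequence without a named gene, 12 were lower and none higher, with a median log2 fold change of -2.14. The background for a lower call was 1.97%. The 12 lay on 10 sequences, some overlap each other, and only 1, model 1138, had a protein match, so they are not 12 independent loci. Their summed normalized counts were 2352 and 5414 in LY_DMSO, 1671 and 2855 in cell2_LY and 526 and 385 in cell16_LY, where the low values of cell16_LY against LY_DMSO follow from how the 12 were chosen. Over all 23 tested models, the median of log2(normalized count + 1) was 5.32 and 6.33 in LY_DMSO, 5.03 and 5.47 in cell2_LY and 4.22 and 3.66 in cell16_LY.

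Model 1114 was the most abundant of them, with 961 and 2630 in LY_DMSO, 994 and 1573 in cell2_LY and 250.1 and 176 in cell16_LY, a log2 fold change of -2.92 (SE 0.48, adjusted p = 0.21, limma). Model 1050 had 307 and 1109, 188 and 607, and 65.1 and 50.2 in the same order, a log2 fold change of -3.33 (SE 0.69). Model 1113, on a sequence that also holds LOC132344779, had 214 and 318, 253 and 347, and 46.5 and 54.8, and LOC132344779 itself had -2.62 (SE 0.56). The count of lower models was 6 without LY_DMSO_2, 7 without cell16_LY_2 and 7 with voom weights in limma. In the other alternatives it was between 11 and 13.

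In LY10 few of these models could be followed. Of the 12 models 11 had a counterpart in the first table and 5 of those were tested, of which 4 had a log2 fold change above 0 and 1, model 2479, was called higher (11.6, 149 and 164 in DMSO and 290.4, 509 and 176 in LY10). Over all 25 tested models of the first table on sequences without a named gene, 4 were lower and 1 higher in LY10 (median -0.37), and over all 41 on unplaced sequences 8 were lower and 1 higher. The summed normalized counts of the unplaced models were 8822, 37925 and 5554 in DMSO and 2694, 4632 and 2017 in LY10, with most of the DMSO_2 value in the models with a spermatid protein match. The named genes on unplaced sequences had a median of -0.25 in cell16_LY against LY_DMSO (71 tested, 1 higher, 7 lower) and of -2.20 in LY10 against DMSO (102 tested, 3 higher, 28 lower).

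**Figure D4:**
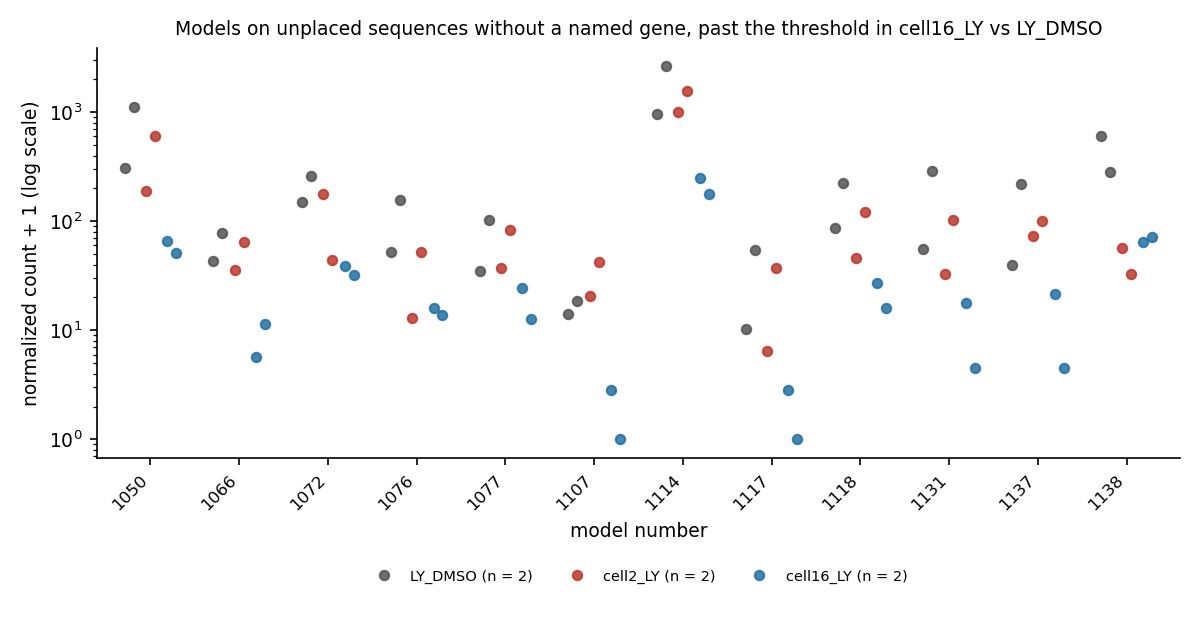
Normalized counts plus 1 on a log axis for the 12 models on unplaced sequences without a named gene that were called lower in cell16_LY vs LY_DMSO, with 1 dot for each library. The cell16_LY dots lie lowest for most models, and for model 1138 cell2_LY (31.6 and 55.7) is below cell16_LY (63.2 and 70.0).

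cell16_LY against cell2_LY compared the 2 starting stages directly. Of the 736 models 36 were higher and 65 lower, where 11.3% of all genes were called, 5.58% higher and 5.77% lower, and no adjusted p was under 0.05 in limma, while 111 had an unadjusted p under 0.05 (17.9% of all genes did). The libraries of the groups did not overlap for 316 models (42.9%), against 54.5% of all genes. The share of lower calls among the models was 8.83%. Of the models on sequences without a named gene 11 of 23 were lower. The count of lower models was 36 without cell2_LY_1 and 33 without cell16_LY_1, and the count of higher models was 63 without cell2_LY_2, 16 without cell16_LY_1 and 21 without cell16_LY_2.

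Model 87 (chr2:117785375-117787199), a single block with a match to CD24, a surface glycoprotein, had 1170.3 and 1184 in LY_DMSO, 696 and 608 in cell2_LY and 1615 and 1902 in cell16_LY. Replicates of each group lay close together, and cell16_LY was higher than cell2_LY by 1.43 on the log2 scale (SE 0.25, adjusted p = 0.19, limma). Its reads may be shared with the CD24 gene. Model 497 (chr12:64608275-64648356), with a match to craniofacial development protein 2, had 42.6 and 53.6, 227 and 125, and 19.5 and 11.7, so it was higher in cell2_LY and lower in cell16_LY than in the vehicle. Model 70 (chr2:121575183-121576279), the most abundant of the second table at 944 FPKM and with a match to the putative uncharacterised protein ART2, had 12474 and 7474, 26784 and 11498, and 20008 and 13872, and was not called.

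Places read in both experiments were compared next, since the tables share no library. Of the first table's models 732 (27.4%) and of the second table's 735 (64.2%) overlapped a model of the other table on the same strand, which gave 712 pairs when each model was used once. Matched models of the first table were the more abundant ones, with a median of 1.38 FPKM against 0.487 for the others. Of the 487 tested ones 24% were called in LY10 (9 higher, 108 lower), and of the 437 tested ones without a counterpart 14.0% were (7 higher, 54 lower).

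Of 406 pairs tested in both, 215 (53.0%) had the same sign in LY10 vs DMSO and in cell2_LY vs LY_DMSO, as did 47.9% of named genes. Of the 96 pairs called in LY10, 88 lower and 8 higher, 56 (58.3%) had the same sign in cell2_LY, as did 46.8% of named genes and 50.6% of lncRNA genes called in LY10. These shares have unlike baselines. Of the named genes called in LY10, 894 of 1759 were lower, and of the lncRNA genes 78 of 87. Median log2 fold changes in cell2_LY were -0.15 for all 406 pairs, -0.05 for named genes and 0.13 for lncRNA genes. Across pairs Pearson's r was 0.13 and Spearman's rho 0.10, as a description, since models are not independent replicates. The number with the same sign was 30 of 64 without DMSO_1, 34 of 76 without LY10_1, 37 of 80 without DMSO_2 and 97 of 156 without DMSO_3. There were 11 pairs called in both, 7 with the same sign and 4 with opposite signs. Over all 406 pairs, called in LY10 or not, 56 were called in cell2_LY. Of 12763 named genes tested in both, 321 were called in both, 112 with the same sign and 209 with opposite signs.

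**Figure D5:**
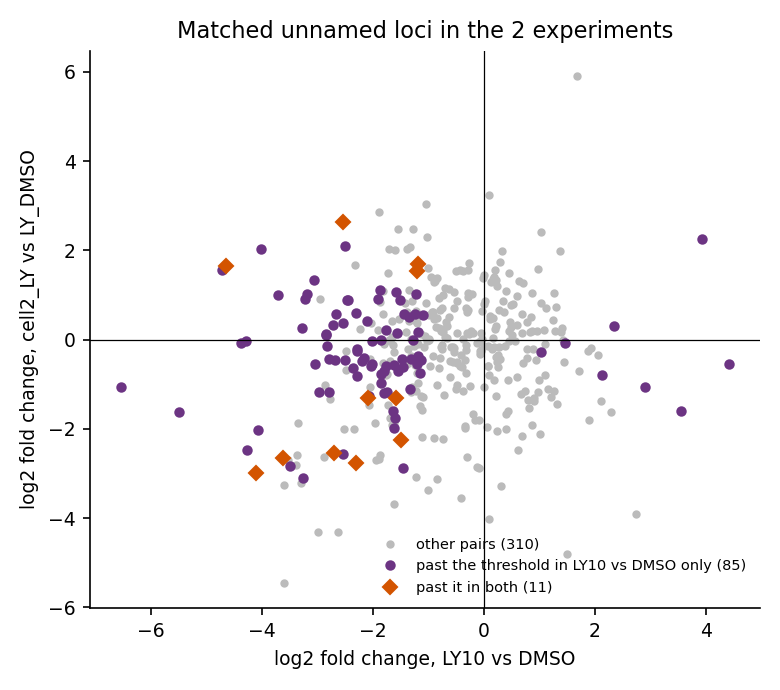
Log2 fold changes of 406 matched models in LY10 vs DMSO (horizontal axis) and cell2_LY vs LY_DMSO (vertical axis), with pairs called in the first comparison and in both marked. The marked pairs lie mostly left of 0 and on both sides of 0 vertically: 56 of 96 have the same sign, and of 11 called in both, 7 lie in the lower left.

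All 7 pairs with the same sign were lower with LY2955303. The homeobox model 861 and its counterpart 362 had log2 fold changes of -2.09 (SE 0.51) and -1.3 (SE 0.56), and the call of model 362 was lost without LY_DMSO_2, cell2_LY_1 or cell16_LY_1. Model 362 had 285 and 785 in LY_DMSO, 130.0 and 283 in cell2_LY and 309 and 188 in cell16_LY. Models 749 and 313 (chr7:40131235-40136079 in the first table), which have no protein match, had log2 fold changes of -4.11 (SE 0.85) and -2.99 (SE 0.58). Their normalized counts were 689, 1414 and 101 in DMSO, 16.4, 28.8 and 36.3 in LY10, 197 and 267 in LY_DMSO, 28.4 and 27.6 in cell2_LY and 84.6 and 275 in cell16_LY. The overlap of 749 and 313 was 21.7% of the longer, so they are the same place only in part. In both tables every embryo treated from the 2-cell stage was below every vehicle embryo of its own table.

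Models 381 and 157 on chromosome 4 had log2 fold changes of -2.69 (SE 0.74) and -2.54 (SE 0.73), with 55.1, 87.5 and 17.5 in DMSO, 5.45, 6.03 and 6.47 in LY10, 46.3 and 47.1 in LY_DMSO and 6.55 and 7.89 in cell2_LY. Models 1865 and 807 (chromosome 20, 7782 bases from SEMA5A in the first table), with retroviral matches, had -2.30 (SE 0.59) and -2.77 (SE 1.18). Models 1636 and 696 on chromosome 18 had -3.61 (SE 1.47) and -2.66 (SE 0.99), and models 1504 and 621 on chromosome 16 had -1.59 (SE 0.58) and -1.31 (SE 0.40). Models 1043 and 443 on chromosome 10, with a match to TPX2, a spindle assembly protein, had -1.5 (SE 0.63) and -2.24 (SE 0.68). In LY10 vs DMSO the libraries of the last 3 pairs overlapped between the groups. The calls of pairs 861, 749, 381 and 1865 in LY10 held when any single library was left out, whereas for 1636, 1504 and 1043 they did not.

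Models beside a gene changed partly with it. Within 5 kb upstream of a gene on the same strand, the log2 fold changes of model and gene had r between 0.48 and 0.57 in the 4 comparisons (70 pairs tested in the first table and 57 in the second). Downstream on the same strand r was 0.12 to 0.36 (48 and 48 pairs). On the other strand it was 0.22 to 0.53 downstream (56 and 55 pairs) and 0.21 to 0.36 upstream (86 and 82 pairs), and for models farther than 5 kb it was 0.07 to 0.29 (203 and 169 pairs). By Spearman's rho the first class did not lead in LY10 vs DMSO. There rho was 0.32 upstream and 0.33 downstream on the same strand, 0.29 downstream and 0.39 upstream on the other, and 0.15 farther away. In the same order 54.3%, 62.5%, 64.3%, 67.4% and 58.6% of pairs had the same sign. In the other comparisons rho of the first class was 0.44 to 0.53. These are descriptions across models of the same libraries, which share depth and scaling.

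The first table had 8 models on the Y chromosome and the second 9, of which 1 pair is described here. The pair 2467 and 1042 (chrY:7957540-7977602 in the first table), 9773 bases downstream of ZFY, was chosen after its values were seen and had 15.3 in DMSO_3 and 43.6 in LY10_1, and 19.5 in LY_DMSO_1, 54.6 and 93.7 in cell2_LY and 72.3 in cell16_LY_2, with 0 in the other libraries. The 6 libraries are those with reads of DDX3Y, USP9Y and ZFY. DMSO and LY10 each had 1 such embryo, LY_DMSO and cell16_LY 1 each and cell2_LY 2. XIST, the RNA of the inactive X chromosome, was at 25.2 in DMSO_3, 101 in LY10_1, 47.3 in cell2_LY_2 and 372 in cell16_LY_2, but at 2438 in LY_DMSO_1 and 3133 in cell2_LY_1, so these 2 libraries had reads of both kinds. In the 6 libraries without Y-linked reads XIST was at 2114 to 6099. The part of embryo sex in the changes of other models was not tested.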

How the data were processed

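RNA was sequenced from 12 single bovine blastocysts (3 DMSO, 3 LY10, 2 LY_DMSO, 2 cell2_LY and 2 cell16_LY). The deposited values are FPKM in 2 tables, which the authors made separately. The submitters' processing notes name HISAT2 2.0.5, StringTie 1.3.3b, featureCounts 1.5.0-p3 and DESeq2 1.20.0, and the genome build is not given in the sources used here. FPKM multiplied by length gave whole reads. These were divided by the library size and scaled to the geometric mean size of the table (normalized count), and genes with a mean of at least 10 were tested as log2(normalized count + 1), so that fold changes of weakly read models are understated. limma 3.58.1 (R 4.3.3; linear model, empirical Bayes with trend, Benjamini-Hochberg adjustment) was fitted to each whole table, with the 3 groups of the second sharing an estimate of spread, and was checked on simulated data. Models were called at p under 0.05 before adjustment when the log2 fold change was also beyond 1 in size. Named in each table were the 5 models of highest mean FPKM and the 2 longest. For each comparison with vehicle and direction, the 5 tested models of smallest p with a mean of at least 50 and libraries that do not overlap between the groups were named, and 3 for cell16_LY vs cell2_LY. Models called in both experiments, models within 50 kb of DUXA or ARGFX and the nearest gene of a named model were added. A gene within 5 kb on the same strand was taken before a nearer one on the other strand. Counterparts in the other table, places with opposite signs and the models on unplaced sequences were added after seeing the data. Models of the tables were paired by overlap on the same strand. The members and lists were chosen with earlier results of these data known. Pseudocount, filter, scaling, weights, block, overlap and left-out libraries were varied. The 4 embryonic stem cell samples were not used here.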

Additional observations from a re-analysis of the deposited data

Results flagged for a closer look

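At 3 places, 4 pairs of models were called in both experiments in which LY2955303 was started at the 2-cell stage, with opposite signs: every LY10 library was below every DMSO library and every cell2_LY library was above every LY_DMSO library. The difference was not tested, because the tables were normalized separately. Of 12763 named genes tested in both experiments, 209 were called in both with opposite signs.

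Models 794 and 341 on chromosome 8, 57871 bases from ADAM7, had log2 fold changes of -2.54 in LY10 and 2.64 in cell2_LY. Model 341 had normalized counts of 57.4 and 50.8 in LY_DMSO, 838 and 140.1 in cell2_LY and 5.6 and 44.3 in cell16_LY. Models 855 and 356, on the other strand there, had -4.65 and 1.66, and model 356 had 1493 and 840.0 in LY_DMSO, 6521 and 1924 in cell2_LY and 743 and 3028 in cell16_LY. The overlap of 855 and 356 was only 3.14% of the longer, and the models of opposite strands share reads that cannot be told apart.

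Models 1682 and 724 had -1.21 and 1.53, with 257, 134 and 175 in DMSO, 102, 48.3 and 97.1 in LY10, 127 and 98.9 in LY_DMSO and 361 and 294 in cell2_LY. Models 1076 and 460, near KCMF1, had -1.18 and 1.70, with 97.8, 106 and 52.5 in DMSO, 50.5, 21.5 and 41.4 in LY10, 38.0 and 26.8 in LY_DMSO and 99.4 and 113 in cell2_LY.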

How the results depend on the processing

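The counts of called models depended on the filter, the scaling and single libraries. In LY10 vs DMSO the 16 higher models became 43 with no filter, 8 with a mean of at least 50 and 31 with quantile normalization, and were 8 to 27 when 1 library was left out. The 162 lower models became 380, 58 and 100 under the same settings and 96 with voom weights, and were 100 to 339 when 1 library was left out. With a mean of at least 50, cell2_LY vs LY_DMSO had 37 higher and 24 lower, cell16_LY vs LY_DMSO 16 and 22, and cell16_LY vs cell2_LY 18 and 38. With 1 library left out these ranges were 34 to 81 and 34 to 78, 20 to 51 and 31 to 49, and 16 to 63 and 33 to 82. An arm left with 1 library was assumed to vary like the other groups. The 38 lower models in cell16_LY were 25 with voom weights and 23 without models overlapping on the other strand (chosen after seeing the data). Same-sign places numbered 30 to 97 with 1 library left out. Windows of 1 and 50 kb put 513 and 1975 models of the first table, and 242 and 883 of the second, near a gene, against 926 and 454 at 5 kb.

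Of 1427 alternatives for 92 named fold changes, 1257 stayed on the same side of the threshold, 170 lost the call and 0 reversed. Only 48 of the 92 fold changes held in every alternative. Samples that share a replicate number did not deviate together (correlations -0.117, 0.168 and -0.100 in the first table, 0.121, -0.232 and -0.133 in the second). With the replicate number as a block, the counts were 21 higher and 151 lower in LY10 vs DMSO, 59 and 50 in cell2_LY vs LY_DMSO, 29 and 41 in cell16_LY vs LY_DMSO, and 42 and 63 in cell16_LY vs cell2_LY.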
